A study of Mus musculus with 12 samples.

Results

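The 53 genes described here act in DNA damage signalling and DNA repair. They were the rows of the deposited gene table, which holds 34745 genes, whose symbol was on a written list. All 53 were found, and all 53 held enough counts to be tested in every comparison. By role, 4 are damage kinases, 8 sense breaks or act on the chromatin around them, 13 act in homologous recombination, 6 in non-homologous end joining, 3 in the Fanconi anaemia pathway, 11 in base excision and single-strand break repair, 2 in mismatch repair, 5 in nucleotide excision repair and 1 in translesion synthesis.

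RNA was sequenced in 12 libraries of MLE-12 cells, a mouse alveolar type II (AT II) line that came from a lung tumour of a mouse carrying the SV40 large T antigen under a surfactant promoter. In the LPS group the cells were kept in 21% oxygen and received 100 ng/mL lipopolysaccharide (LPS), a bacterial cell wall component, and in the Hyp group they were kept in 85% oxygen (hyperoxia) without LPS. The LPS + M2-Exo and Hyp + M2-Exo groups received the same injury and then 10 µg/mL of M2-Exo, exosomes from the mouse alveolar macrophage line MH-S after IL-4 had polarised it towards the M2 state. Each group held 3 libraries taken at 24 h, the labels do not say whether these were separate cultures, and p-values therefore measure the spread between these libraries, which may be technical. No library came from untreated cells, so a gene that stood higher in Hyp than in LPS may have risen in the former or fallen in the latter. Where hyperoxia is set against LPS below, rose and fell mean a called higher or lower level in hyperoxia.

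Cells answer a broken DNA molecule with a relay of kinases that stop the cell cycle and call repair factors to the break, which is then closed either by recombination with the sister chromatid or by direct joining of its ends. High oxygen raises reactive oxygen species, which oxidise bases and cut single strands, and such lesions are the substrates of base excision and single-strand break repair. Many of the recombination factors are made mainly while DNA is being copied, whereas many, though not all, of the excision factors are present through the whole cell cycle.

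Library totals lay between 16021833 counts (lowest, LPS + M2-Exo) and 24074616 (highest, Hyp), and the 53 genes together held between 56698 and 105010 of them. Levels are given below as CPM, the counts of a gene relative to the library total, on a common TMM scale of the 12 libraries. Genes are compared with each other only on FPKM, the deposited values per length. The label of the cells was checked against markers. Nkx2-1, the transcription factor of lung epithelium, lay at 51.5 to 56.2 FPKM in the 6 LPS libraries and at 11.2 to 13.4 in the 6 hyperoxia libraries, Sftpc at 26.0 to 28.2 and 13.5 to 17.7, whereas Sftpa1 and Sftpd were at or near 0. Other markers went the other way, with Etv5 at 4.92 to 5.40 FPKM in the LPS libraries and 6.82 to 8.14 in the hyperoxia libraries, Sftpb at 0.399 to 0.560 and 1.37 to 1.87, and the keratin gene Krt19 at 199.9 to 237 and 295 to 342. Among the other epithelial markers, Cdh1 lay at 2.72 to 3.27 FPKM in the LPS libraries and 0.539 to 0.730 in the hyperoxia libraries. Krt8 was at 74.2 to 86.5 and 76.3 to 84.9, Epcam at 0.275 to 0.556 and 0.135 to 0.436, and Krt18 and Cldn4 were near 0. Of 10 type II markers 7 were tested in Hyp against LPS, and 5 were called lower and 2 higher, and of 6 epithelial markers 4 were tested, and 3 were called lower and 1 higher. The 12 macrophage markers summed to 165 to 187 FPKM in LPS, 133 to 148 in LPS + M2-Exo, 45.9 to 49.8 in Hyp and 35.8 to 53.2 in Hyp + M2-Exo, with Adgre1, Csf1r and Lyz2 present in all libraries and Siglecf at or near 0. The 6 fibroblast markers, mainly Dcn, summed to 345 to 374 FPKM in the LPS libraries and 159 to 173 in the hyperoxia libraries. In bulk RNA, fewer cells of a type and less of their RNA per cell cannot be told apart. The part of these markers in the differences between Hyp and LPS was not tested, and injury, oxygen and any batch are the same split of the libraries and cannot be told apart.

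The first comparison asked how the repair genes differed between hyperoxia and LPS. In Hyp against LPS, 25 of the 53 genes rose and 10 fell at an adjusted p under 0.05. Those that rose included the break sensor Nbn (1.89-fold), the ubiquitin ligase Rnf168 (1.83-fold) and the recombination gene Rad52 (2.02-fold), and those that fell included the Ku subunit Xrcc6 (1.89-fold lower), the checkpoint kinase Chek2 (1.72-fold lower) and 5 genes of base excision and single-strand break repair. These 35 calls stand against 75.8% of the 13805 genes tested, with 38% called higher and 37.8% called lower, and the called share of the repair genes, 66%, was not above that of genes at large. The median log2 fold change was 0.13 over the 53 genes and 0.0091 over all genes tested, and the median size of the change, whichever its direction, was 0.38 and 0.51. At least 1.5-fold changes were called in 16 of the 53 genes and in 43.5% of all genes, and the Hyp and LPS libraries did not overlap in 42 of the 53 and in 78.8% of all.

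**Figure D1:**
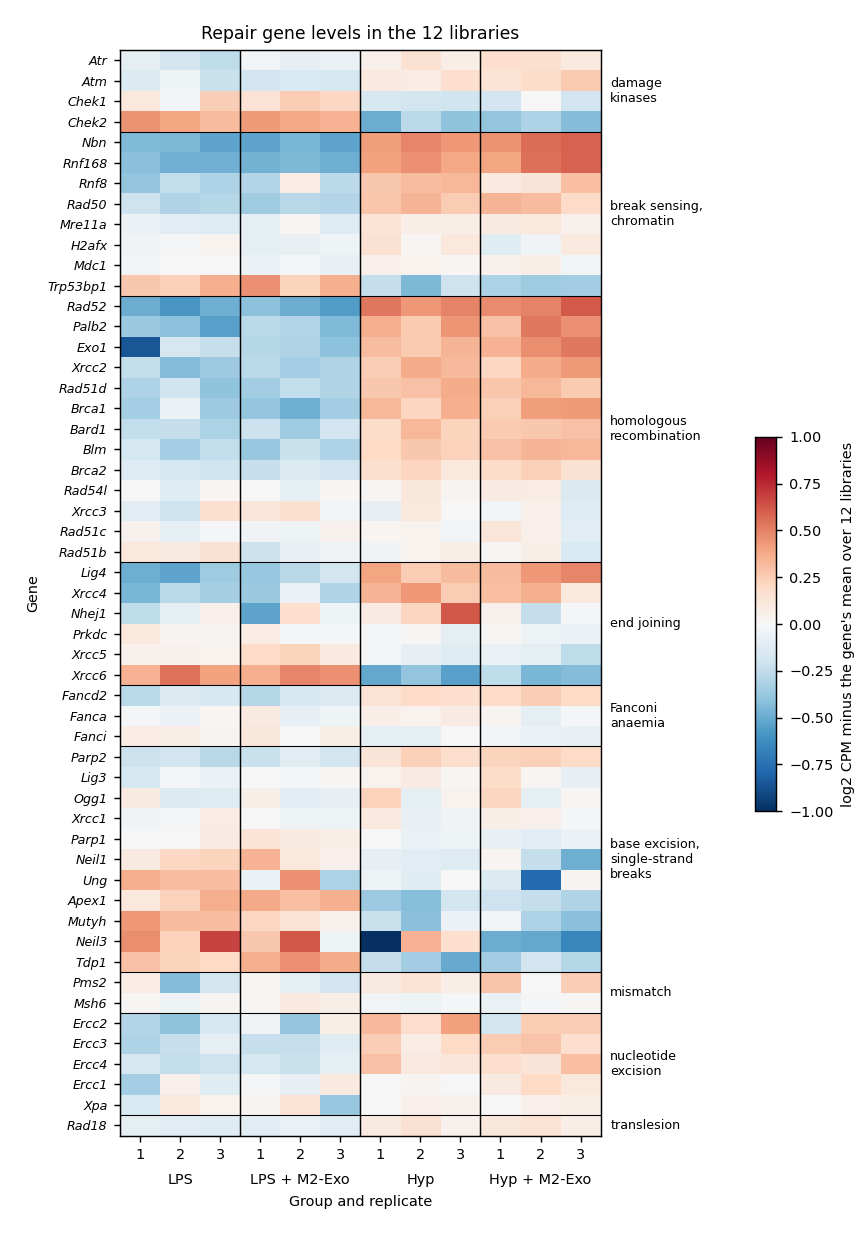
Level of each of the 53 repair genes in each of the 12 libraries, as log2 CPM minus the gene's mean over the 12 libraries (colour, from -1 to 1, with values beyond the ends drawn in the end colour), with genes in rows by repair group and libraries in columns by group and replicate. The hyperoxia columns are redder than the LPS columns in most rows of break sensing and homologous recombination and bluer for Chek2, Trp53bp1, Xrcc6, Apex1, Mutyh and Tdp1, and columns with and without M2-Exo look alike.

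The promoters of the 2 genes with the largest rises and the 2 with the largest falls among those that changed in the same direction with and without M2-Exo, and that had an entry in the RefSeq promoter table, show what lies upstream of genes that moved in opposite directions. Each is given as the 250 bases before the transcription start in GRCm38.p6, 5′ to 3′ on the strand of the gene, with the motifs found in capitals.
Rad52, chr6:119902448-119902697, plus strand: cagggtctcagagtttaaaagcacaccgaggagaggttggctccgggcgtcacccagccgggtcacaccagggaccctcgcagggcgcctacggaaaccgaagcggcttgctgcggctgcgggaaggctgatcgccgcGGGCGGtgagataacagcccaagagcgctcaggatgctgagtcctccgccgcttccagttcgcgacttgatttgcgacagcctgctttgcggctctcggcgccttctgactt
Rnf168, chr16:32277211-32277460, plus strand: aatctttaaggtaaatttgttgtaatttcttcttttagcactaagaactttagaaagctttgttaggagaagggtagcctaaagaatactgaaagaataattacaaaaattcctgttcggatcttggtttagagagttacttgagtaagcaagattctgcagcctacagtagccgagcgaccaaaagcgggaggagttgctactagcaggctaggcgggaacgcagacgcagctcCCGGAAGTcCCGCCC
Chek2, chr5:110839733-110839982, plus strand: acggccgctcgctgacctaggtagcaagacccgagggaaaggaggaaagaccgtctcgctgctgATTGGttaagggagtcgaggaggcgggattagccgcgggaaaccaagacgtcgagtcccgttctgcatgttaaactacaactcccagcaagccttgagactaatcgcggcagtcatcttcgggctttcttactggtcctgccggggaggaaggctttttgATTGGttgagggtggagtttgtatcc
Tdp1, chr12:99884268-99884517, plus strand: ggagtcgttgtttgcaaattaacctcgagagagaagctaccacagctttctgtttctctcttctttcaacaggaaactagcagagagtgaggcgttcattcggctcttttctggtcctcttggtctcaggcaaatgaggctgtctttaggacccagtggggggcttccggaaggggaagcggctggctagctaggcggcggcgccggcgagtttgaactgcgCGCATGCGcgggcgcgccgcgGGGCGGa
The capitals mark GGGCGG, the GC box bound by SP1, upstream of Rad52, the reverse complements of ACTTCCGG (ETS factors) and of GGGCGG upstream of Rnf168, the reverse complement of CCAAT at 2 places upstream of Chek2, and CGCATGCG (the core of the NRF1 motif) and GGGCGG upstream of Tdp1. Motifs were searched as exact letters on both strands, and none of these overlapped each other. A promoter was found for 43 of the 53 genes, and over the 250 bases before and the 50 after the start the GC box occurred in 72.1% of them, against 46.3% of the 17011 promoters in the table. These 17011 were not limited to genes with enough counts to be tested, as all 53 repair genes were. The part of that difference in the shares was not tested. The CCAAT box occurred in 51.2% against 39.0%, ACTTCCGG in 11.6% against 5.4%, CGCATGCG in 6.98% against 2.62%, and TTTNGCGC, the E2F motif, in 2.33% against 1.76%. The GC box occurred in 72.2% of the 18 promoters of genes called higher in Hyp and in 66.7% of the 9 of genes called lower. The median GC content of the windows was 58.67% for the repair genes and 56.33% for all, and a match of letters is not a bound site.

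All 4 damage kinases differed between Hyp and LPS, 2 in each direction, where 75.8% of all genes tested were called. Atm, which is activated by double-strand breaks and was the most abundant kinase by FPKM, stood at 103, 111 and 97.7 CPM in LPS and 99.8, 102 and 101 in LPS + M2-Exo. Atm was at 122, 119.7 and 127 in Hyp and 125, 129 and 136 in Hyp + M2-Exo. The hyperoxia libraries all lay above the LPS libraries, with a log2 fold change of 0.24 without M2-Exo (SE 0.051, adjusted p = 0.00259, edgeR) and 0.37 with it (adjusted p = 0.00014). Atr, the kinase that answers single-stranded DNA at stalled forks, stood at 74.98, 70.2 and 67.2 CPM in LPS and 78.6, 75.6 and 76.4 in LPS + M2-Exo. Atr was at 83.00, 89.1 and 83.9 in Hyp and 89.7, 89.4 and 85.7 in Hyp + M2-Exo. It rose by a similar amount, 0.27 (SE 0.052, adjusted p = 0.00168) and 0.20 (adjusted p = 0.00445) on the log2 scale.

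Both checkpoint kinases downstream of them moved the other way. Chek1, the main target of ATR, stood at 41.2, 37.5 and 45.4 CPM in LPS and 42.3, 45.6 and 44.2 in LPS + M2-Exo. Chek1 was at 34.2, 33.6 and 33.2 in Hyp and 33.4, 38.2 and 33.5 in Hyp + M2-Exo. Its hyperoxia libraries lay below the LPS libraries of the same exosome treatment, with log2 fold changes of -0.30 (SE 0.074, adjusted p = 0.00692) and -0.33 (adjusted p = 0.00334). The former call was lost with limma on log2(FPKM + 1) and no filter, at -0.17 (adjusted p = 0.0546). Chek2, the main target of ATM, stood at 32.9, 31.8 and 29.99 CPM in LPS and 32.4, 31.5 and 30.7 in LPS + M2-Exo. Chek2 was at 17.03, 19.96 and 18.2 in Hyp and 18.3, 19.4 and 17.8 in Hyp + M2-Exo. It fell further, by 0.78 (SE 0.075, adjusted p = 2.84e-05) and 0.77 (adjusted p = 1.70e-05) on the log2 scale, and the groups were far apart. Of 12 further genes of damage signalling on the written list, 8 rose and 1 fell in Hyp against LPS, among them Rad9a, a subunit of the clamp that brings ATR its activator (1.03 on the log2 scale, adjusted p = 7.55e-07), and Clspn, the adaptor between ATR and CHK1 (0.87, adjusted p = 8.33e-08). Wee1, an inhibitory kinase of the mitotic cyclin complex, was the gene that fell (-0.57, adjusted p = 4.71e-05).

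In break sensing and the chromatin response, 5 of 8 genes rose, 1 fell and 2 did not pass the test in Hyp against LPS. As shares, 75% were called and 62.5% called higher, beside 75.8% and 38% of all genes tested. The 3 subunits of the MRN complex, which binds broken ends and activates ATM, all rose but to different degrees. Nbn, its regulatory subunit, stood at 57.3, 56.8 and 54.05 CPM in LPS and 53.9, 56.6 and 53.8 in LPS + M2-Exo. Nbn was at 104, 109 and 105 in Hyp and 106, 114 and 117 in Hyp + M2-Exo. The 6 hyperoxia libraries were far above the 6 LPS libraries, and the log2 fold changes were 0.92 (SE 0.041, adjusted p = 4.27e-07) and 1.04 (adjusted p = 1.11e-06). Rad50, the ATPase that tethers the ends, changed by 0.56 (adjusted p = 3.83e-06) and 0.59 (adjusted p = 1.12e-05), and the nuclease Mre11a by 0.19 (adjusted p = 0.00257) and 0.15 (adjusted p = 0.0304). The intervals of the 3 changes in Hyp against LPS, 0.82 to 1.01 for Nbn, 0.47 to 0.64 for Rad50 and 0.10 to 0.27 for Mre11a, did not overlap. The Mre11a call with M2-Exo was lost without LPS + M2-Exo replicate 1 or 3 or Hyp + M2-Exo replicate 1 or 2, at log2 fold changes of 0.12 to 0.15.

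The histone variant gene H2afx, whose product ATM phosphorylates beside a break, was the most abundant of the group by FPKM and stood at 51.2, 52.00 and 53.6 CPM in LPS and 49.2, 49.7 and 50.7 in LPS + M2-Exo. H2afx was at 58.3, 53.05 and 56.5 in Hyp and 48.3, 51.3 and 56.2 in Hyp + M2-Exo. The groups overlapped, and its log2 fold change of 0.10 (95% interval -0.022 to 0.22) did not pass the test (adjusted p = 0.117). H2afx passed it when Hyp replicate 2 was left out, at 0.14, and 9.66% of its transcript stretches of 50 bases also occur in other genes, among them other histone genes. Mdc1, the adaptor that reads the phosphorylated histone, was at 0.041 (95% interval -0.026 to 0.11) and did not pass either.

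The ubiquitin ligases that act next both rose. Rnf168 stood at 139, 133 and 133 CPM in LPS and 134, 136 and 132 in LPS + M2-Exo. Rnf168 was at 245, 254 and 242 in Hyp and 244, 272 and 279.5 in Hyp + M2-Exo. Every hyperoxia library lay above every LPS library, and the log2 fold changes were 0.87 (SE 0.034, adjusted p = 2.06e-07) and 0.99 (adjusted p = 1.32e-06). Rnf8, which acts before it, stood at 10.8, 11.9 and 11.4 CPM in LPS and 11.5, 14.96 and 11.8 in LPS + M2-Exo. Rnf8 was at 17.1, 17.6 and 17.8 in Hyp and 15.1, 15.5 and 17.4 in Hyp + M2-Exo. LPS + M2-Exo replicate 2 came close to the hyperoxia libraries, and the log2 fold change was 0.62 (SE 0.07, adjusted p = 7.78e-05) without M2-Exo and 0.33 (SE 0.12, adjusted p = 0.038) with it. The latter call was lost without LPS + M2-Exo replicate 1 or 3 or Hyp + M2-Exo replicate 2 or 3, at 0.26 to 0.36. Some 14.5% of the 50-base stretches of Rnf8 also occur in other genes, including Gm28043, which overlaps it by position and was itself called higher (0.50, adjusted p = 0.0469).

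Trp53bp1, whose product protects broken ends from resection, was the gene of the group that fell, by 0.59 (SE 0.069, adjusted p = 9.72e-05) and 0.69 (adjusted p = 2.51e-05) on the log2 scale. Its means were 104 ± 4.72 CPM in LPS, 108 ± 8.97 in LPS + M2-Exo, 69.4 ± 6.08 in Hyp and 67.3 ± 0.941 in Hyp + M2-Exo (SD, n = 3), without overlap. It shares 13.7% of its stretches with the neighbouring gene Tubgcp4, which overlaps it and was called higher in Hyp (0.47, adjusted p = 5.44e-05). Of 7 further genes of this group in the table, 5 rose and 1 fell, the largest rises being those of Uimc1 (0.68, adjusted p = 8.17e-05), a ubiquitin-binding partner of BRCA1, and Rnf169 (0.65, adjusted p = 5.57e-06), a reader of RNF168 marks.

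Homologous recombination, the largest group, held the most rises and no fall among its listed genes. In Hyp against LPS, 9 of its 13 genes rose and 4 did not pass the test, and the median log2 fold change of the 13 was 0.51. The share called higher was 69.2%, beside 38% of all genes tested. With no fall, the share called in either direction was also 69.2%, below the 75.8% of all genes. The same 9 of 13 rose with M2-Exo in both groups. Rad52, which anneals complementary strands, was the most changed of all 53 in Hyp against LPS. Rad52 stood at 10.6, 10.00 and 10.7 CPM in LPS and 11.3, 10.6 and 10.2 in LPS + M2-Exo. Rad52 was at 21.7, 20.4 and 21.2 in Hyp and 20.9, 21.2 and 23.05 in Hyp + M2-Exo. Every hyperoxia library lay far above every LPS library, with log2 fold changes of 1.01 (SE 0.067, adjusted p = 3.21e-06) and 1.02 (adjusted p = 1.37e-05), although by FPKM it was the second lowest of the 53 genes (1.49).

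The BRCA genes rose together. Brca1, whose product with BARD1 promotes resection, was the most abundant recombination gene by FPKM (21.6) and stood at 193, 235 and 190.2 CPM in LPS and 187, 174 and 192 in LPS + M2-Exo. Brca1 was at 307, 284 and 314 in Hyp and 288, 327 and 328 in Hyp + M2-Exo. LPS replicate 2 was the highest of the 6 LPS libraries and still below every hyperoxia library, and the log2 fold changes were 0.55 (SE 0.082, adjusted p = 0.000397) and 0.77 (adjusted p = 1.05e-05). Palb2, the bridge between BRCA1 and BRCA2, stood at 21.6, 21.03 and 19.2 CPM in LPS and 23.2, 22.9 and 20.6 in LPS + M2-Exo. Palb2 was at 35.96, 33.5 and 37.98 in Hyp and 34.4, 40.4 and 38.4 in Hyp + M2-Exo. The hyperoxia libraries stood apart from the LPS libraries, with log2 fold changes of 0.80 (SE 0.071, adjusted p = 1.83e-05) and 0.76 (adjusted p = 6.65e-05). Bard1 changed by 0.51 (adjusted p = 7.13e-05) and Brca2, which acts after resection, by 0.33 (adjusted p = 0.00011) without M2-Exo, and by 0.53 and 0.38 with it.

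Xrcc2, Rad51d, Rad51b, Rad51c and Xrcc3, whose products work in shared complexes during recombination, did not move as a set. Xrcc2 stood at 32.1, 28.1 and 29.6 CPM in LPS and 31.5, 29.99 and 30.8 in LPS + M2-Exo. Xrcc2 was at 45.1, 49.2 and 47.6 in Hyp and 43.9, 49.3 and 51.03 in Hyp + M2-Exo. It rose by 0.66 (SE 0.065, adjusted p = 3.38e-05) and 0.64 (adjusted p = 7.11e-05) on the log2 scale, without overlap. Rad51d, which pairs with XRCC2, stood at 25.9, 28.02 and 24.4 CPM in LPS and 25.4, 27.2 and 26.1 in LPS + M2-Exo. Rad51d was at 38.8, 39.5 and 41.7 in Hyp and 39.1, 40.7 and 38.6 in Hyp + M2-Exo. The rise was 0.62 (SE 0.066, adjusted p = 5.62e-05) and 0.59 (adjusted p = 4.05e-05), again without overlap. The other three did not pass the test in either pair of groups, Rad51b at -0.091 (95% interval -0.33 to 0.14), Rad51c at 0.03 (-0.10 to 0.16) and Xrcc3 at 0.054 (-0.21 to 0.32) in Hyp against LPS, so that for each a 1.5-fold change lay outside the interval.

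Of the genes that process recombining DNA, Exo1 (the resection nuclease, not to be confused with M2-Exo) stood at 52.8, 85.02 and 81.5 CPM in LPS and 78.3, 77.7 and 71.9 in LPS + M2-Exo. Exo1 was at 118, 115 and 121 in Hyp and 122, 132 and 138 in Hyp + M2-Exo. LPS replicate 1 was well below the other LPS libraries, and the log2 fold change was 0.69 (SE 0.16, adjusted p = 0.00415) in Hyp against LPS and 0.78 (SE 0.061, adjusted p = 9.04e-06) with M2-Exo. Without LPS replicate 1 the former was 0.50 and the call held. The helicase Blm rose by 0.49 (adjusted p = 2.57e-05) and 0.62 (adjusted p = 8.86e-06), and the translocase Rad54l did not pass the test (0.084, 95% interval -0.038 to 0.21). Some 12.3% of the 50-base stretches of Rad54l also occur in other genes, among them Lrrc41, which overlaps it. Lrrc41 was called higher in Hyp (0.17, adjusted p = 0.00983, edgeR), and what it adds to the counts of Rad54l was not tested. In the 20 further recombination genes of the written list, 14 rose and 4 fell, with the largest changes in Rad51ap1, a recombination cofactor (1.26, adjusted p = 4.78e-08), and Recql, a helicase (0.81, adjusted p = 7.78e-07).

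**Figure D2:**
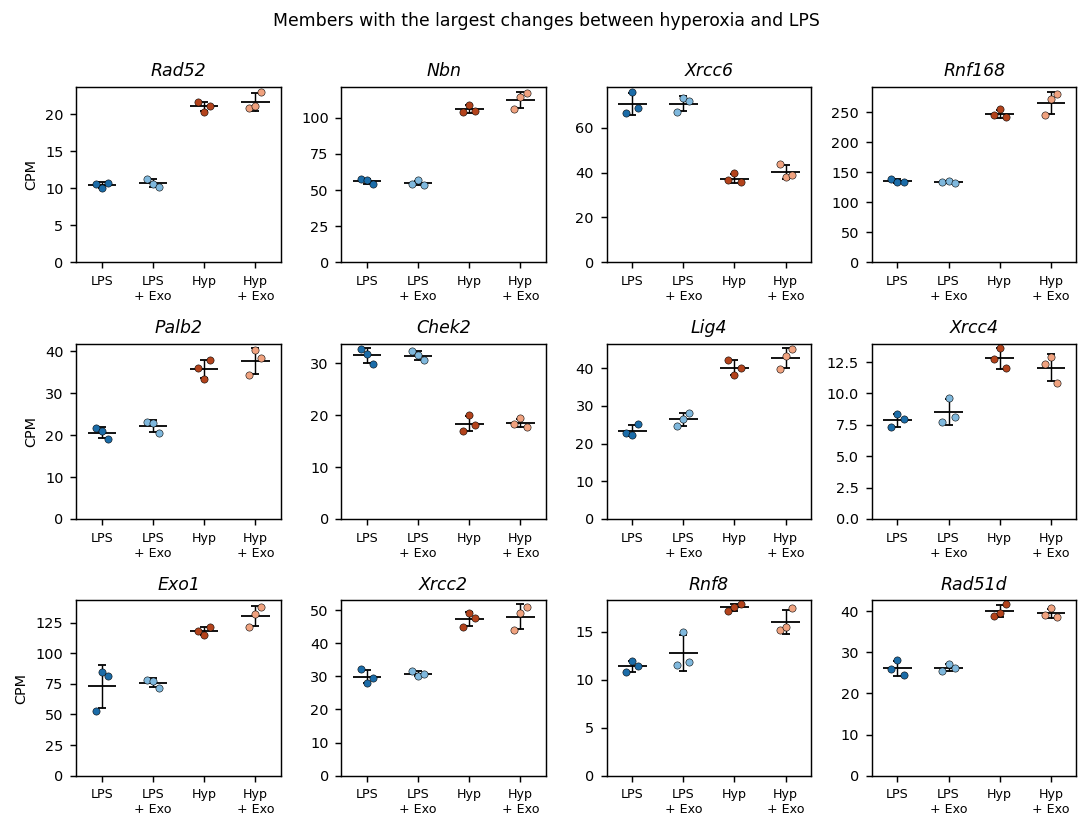
CPM in each library (points), with the group mean (line) and SD (bars, n = 3), for the 12 repair genes with the largest changes in Hyp against LPS, ordered by size, each on its own axis from 0. The 6 hyperoxia libraries lie above the 6 LPS libraries in 10 panels and below them for Xrcc6 and Chek2, the single low LPS point of Exo1 is LPS replicate 1, and the high LPS + M2-Exo point of Rnf8 is replicate 2.

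Non-homologous end joining was split. In Hyp against LPS, 2 of its 6 genes rose, 1 fell and 3 did not pass the test. That is 50% called, below the 75.8% of all genes tested. Xrcc6, which encodes the Ku70 subunit of the ring that binds broken ends, stood at 66.5, 76.1 and 68.9 CPM in LPS and 67.1, 73.3 and 71.9 in LPS + M2-Exo. Xrcc6 was at 36.5, 39.7 and 35.7 in Hyp and 43.7, 38.03 and 38.7 in Hyp + M2-Exo. It was the largest fall of the 53 genes in Hyp against LPS, by 0.92 on the log2 scale (SE 0.069, adjusted p = 6.66e-06). With M2-Exo in both groups it fell by 0.82 (adjusted p = 1.55e-05), and neither pair of groups overlapped. Desi1, which overlaps Xrcc6 by position and shares 6.29% of its 50-base stretches, was called in the opposite direction (0.51, adjusted p = 0.0345). Xrcc5, which encodes the partner subunit Ku80 and was the most abundant end joining gene by FPKM (20.8), stood at 54.8, 54.9 and 54.6 CPM in LPS and 60.6, 61.98 and 56.99 in LPS + M2-Exo. Xrcc5 was at 52.6, 50.2 and 48.9 in Hyp and 50.8, 49.7 and 44.7 in Hyp + M2-Exo. Its change in Hyp against LPS, -0.11 (SE 0.046, 95% interval -0.22 to -0.0067), did not pass the test (adjusted p = 0.0526), but did with Hyp replicate 1 left out, at -0.14, and with M2-Exo in both groups (-0.31, adjusted p = 0.0032). The intervals of the changes of Xrcc6 and Xrcc5 did not overlap in either pair of groups.

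The ligase complex that seals the ends moved the other way. Lig4, the ligase, stood at 22.9, 22.2 and 25.1 CPM in LPS and 24.7, 26.4 and 28.2 in LPS + M2-Exo. Lig4 was at 42.1, 38.2 and 39.9 in Hyp and 39.9, 43.3 and 44.9 in Hyp + M2-Exo. Its log2 fold changes were 0.78 (SE 0.069, adjusted p = 1.76e-05) and 0.69 (adjusted p = 6.53e-05), without overlap. Xrcc4, its scaffold, stood at 7.31, 8.34 and 7.98 CPM in LPS and 7.75, 9.65 and 8.16 in LPS + M2-Exo. Xrcc4 was at 12.7, 13.6 and 11.99 in Hyp and 12.4, 12.9 and 10.8 in Hyp + M2-Exo. The rise was 0.70 (SE 0.091, adjusted p = 0.000178) and 0.50 (adjusted p = 0.00554), and LPS + M2-Exo replicate 2 came nearest to the hyperoxia libraries. Prkdc, the catalytic subunit of DNA-PK that Ku recruits, stood at 68.6, 64.9 and 64.9 CPM in LPS and 67.2, 63.2 and 63.3 in LPS + M2-Exo. Prkdc was at 63.04, 64.4 and 60.00 in Hyp and 64.3, 61.5 and 61.2 in Hyp + M2-Exo. The change was -0.082 (95% interval -0.19 to 0.026, adjusted p = 0.143) and -0.051 (-0.17 to 0.069). Nhej1, the XLF factor, had the least precise estimate of the group at under 4 CPM in every library (0.43, 95% interval -0.034 to 0.90). Among 5 further end joining genes in the table, 3 rose and none fell, led by Poll, a gap-filling polymerase (0.52, adjusted p = 0.000213), and Dclre1c, the Artemis nuclease (0.47, adjusted p = 0.000424).

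**Figure D3:**
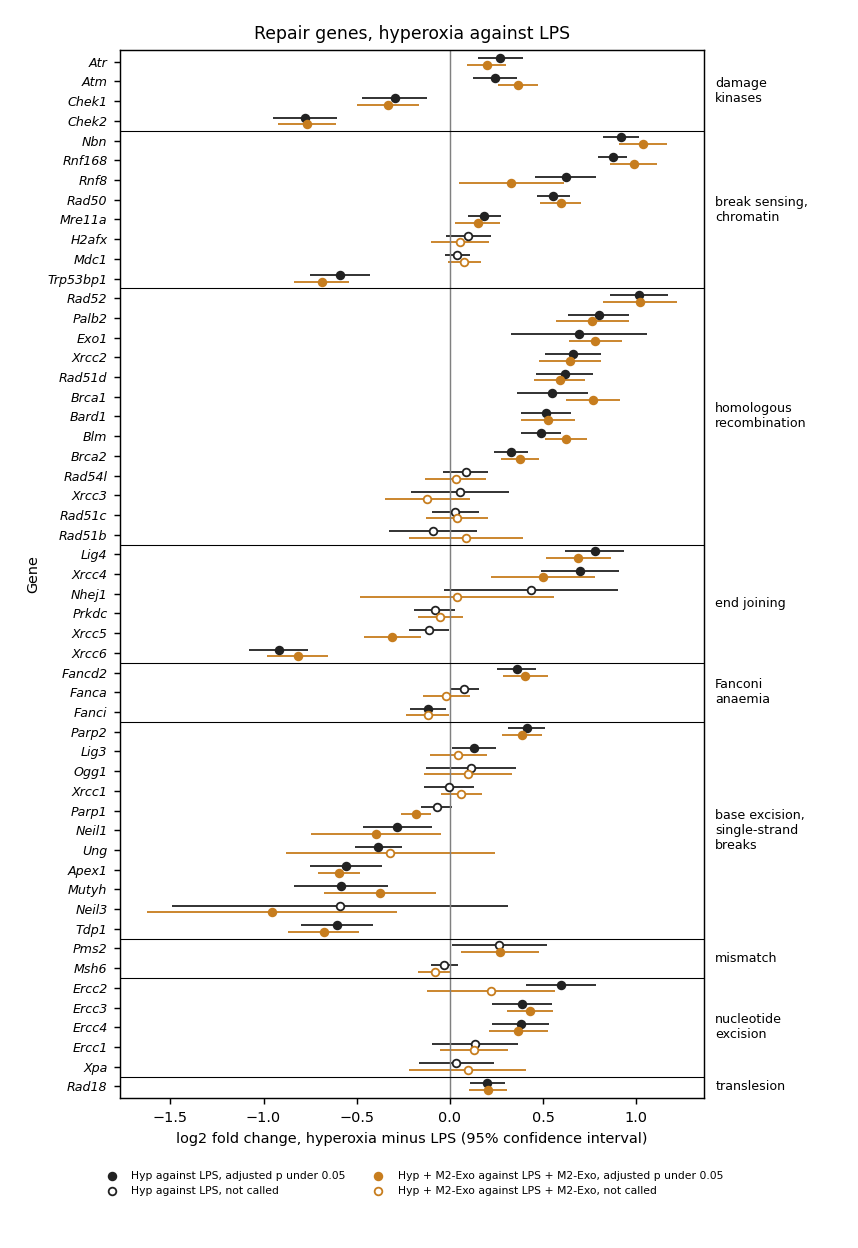
Log2 fold change of hyperoxia against LPS with its 95% confidence interval for each of the 53 repair genes, without M2-Exo (black) and with M2-Exo in both groups (orange), where filled points are called at an adjusted p under 0.05 and genes are grouped by repair pathway. Homologous recombination has no called point below 0, base excision and single-strand break repair has most of its called points below 0, and the widest intervals are those of Neil3, Ung and Nhej1.

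Of the 3 Fanconi anaemia genes, which act on crosslinks between strands, Fancd2 rose, Fanci fell slightly and Fanca did not pass the test. That is 66.7% called in Hyp against LPS, below the 75.8% of all genes tested. Fanca, a member of the core complex and the most abundant of the group by FPKM, stood at 149.6, 145 and 153 CPM in LPS and 161, 143 and 147 in LPS + M2-Exo. Fanca was at 158, 155 and 160.2 in Hyp and 154, 141 and 150.0 in Hyp + M2-Exo. The change was 0.078 (95% interval -0.0014 to 0.16, adjusted p = 0.0686), and it passed the test with LPS replicate 3 left out, at 0.10. Fancd2 and Fanci, whose products form the complex that is ubiquitinated at a crosslink, changed by 0.36 (adjusted p = 0.000162) and -0.12 (adjusted p = 0.0315), and the call on Fanci was lost without LPS replicate 1 or 2 or Hyp replicate 1 or 2, at -0.10 to -0.12. It was also lost with library size alone (-0.029, adjusted p = 0.563), without the filter, with DESeq2 and in the 3 limma fits to FPKM, where it came down to -0.027. Of the 50-base stretches in their transcripts, 8.68% of those of Fanca and 12.4% of those of Fanci also occurred in transcripts of other genes, mainly Zfp276 and Polg, which overlap them. Both neighbours were called higher in Hyp than in LPS, with log2 fold changes of 0.58 for Zfp276 (adjusted p = 0.000772) and 0.49 for Polg (adjusted p = 0.000345), and what they add to the counts of Fanca and Fanci was not tested. Of 18 further genes of the pathway, 10 rose and 4 fell, with the largest changes in Faap24 (1.72, adjusted p = 9.25e-07) and Fancm (1.01, adjusted p = 9.21e-08), whose products bind each other and target the core complex to DNA.

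In base excision and single-strand break repair, the routes that handle oxidised bases, falls and rises were mixed. In Hyp against LPS, 5 of the 11 genes fell, 2 rose and 4 did not pass the test, and the median log2 fold change was -0.28. The share called lower, 45.5%, was near the 37.8% of all genes tested, and the share called in either direction, 63.6%, lay below the 75.8% of all genes. Ogg1, the glycosylase that removes 8-oxoguanine, stood at 17.9, 15.3 and 15.4 CPM in LPS and 17.5, 15.5 and 15.9 in LPS + M2-Exo. Ogg1 was at 19.7, 15.7 and 17.2 in Hyp and 19.5, 15.7 and 17.01 in Hyp + M2-Exo. The 4 groups overlapped, with a change of 0.11 (95% interval -0.13 to 0.35, adjusted p = 0.34). Ogg1 overlaps Camk1 by position, with 5.92% of its stretches shared with other genes. Camk1 was called lower in Hyp (-0.90, adjusted p = 1.27e-07), and what it adds to the counts of Ogg1 was not tested. Mutyh, which removes adenine paired with 8-oxoguanine, fell by 0.59 (SE 0.11, adjusted p = 0.00138) and 0.38 (SE 0.13, adjusted p = 0.029) on the log2 scale. The latter call was lost without LPS + M2-Exo replicate 1 or 2 or Hyp + M2-Exo replicate 2 or 3, at -0.29 to -0.37, and with library size alone, DESeq2 or limma without a filter, at -0.18 to -0.38.

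The other glycosylases were lower or uncertain. Neil1, which removes oxidised pyrimidines, changed by -0.28 (adjusted p = 0.0127) and -0.40 (adjusted p = 0.0432), the latter call being lost without LPS + M2-Exo replicate 1 or 2 or Hyp + M2-Exo replicate 2 or 3, at -0.27 to -0.44. The first call on Neil1 was lost with library size alone (-0.19, adjusted p = 0.0552), with DESeq2 (adjusted p = 0.0875) and with all 12 libraries in 1 fit (adjusted p = 0.0515), and the second with library size alone, DESeq2 and the 3 limma fits, at an adjusted p of 0.0514 to 0.138. Ung, which removes uracil, fell by 0.38 in Hyp against LPS (SE 0.054, adjusted p = 0.000298), a call that was lost with all 12 libraries in 1 fit (adjusted p = 0.0918). With M2-Exo its libraries spread widely, 29.8 ± 8.48 CPM in LPS + M2-Exo and 23.9 ± 6.47 in Hyp + M2-Exo (SD, n = 3), and the test was not passed (-0.32, 95% interval -0.88 to 0.24). Neil3, the least expressed of the 53 at 0.137 FPKM, was called only with M2-Exo (-0.96, SE 0.29, adjusted p = 0.0167), a call that was lost without LPS + M2-Exo replicate 2 or Hyp + M2-Exo replicate 3, at -0.76 and -0.90, with DESeq2 (adjusted p = 0.109) and with limma and no filter (adjusted p = 0.0501).

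Downstream of the glycosylases, Apex1, the endonuclease that cuts at the base-free site, fell by 0.56 (SE 0.084, adjusted p = 0.00042) and 0.59 (adjusted p = 1.08e-05) on the log2 scale. Its means were 96.8 ± 8.68 CPM in LPS, 104 ± 2.85 in LPS + M2-Exo, 65.8 ± 5.71 in Hyp and 69.1 ± 2.33 in Hyp + M2-Exo (SD, n = 3). Of the 50-base stretches of Apex1, 51.7% also occur in other genes, including the overlapping gene Tmem55b, which was called in the opposite direction (0.26, adjusted p = 0.000293). Tdp1, which removes trapped topoisomerase I, fell by 0.60 (SE 0.084, adjusted p = 0.000259) and 0.68 (adjusted p = 0.000121).

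The poly(ADP-ribose) polymerases, which mark single-strand breaks, differed from each other. Parp1 stood at 293, 294 and 310.4 CPM in LPS and 324, 313 and 307 in LPS + M2-Exo. Parp1 was at 292, 280.0 and 283 in Hyp and 279, 272 and 282 in Hyp + M2-Exo. The change in Hyp against LPS, -0.069 (95% interval -0.15 to 0.014), did not pass the test (adjusted p = 0.112), whereas with M2-Exo in both groups Parp1 fell by 0.18 on the log2 scale (SE 0.036, adjusted p = 0.00181). The latter call was lost in the 3 limma fits to FPKM, at -0.089 to -0.091 and an adjusted p of 0.0520 to 0.103. Parp2, the most abundant of the group by FPKM (52.99), stood at 80.6, 81.7 and 76.97 CPM in LPS and 80.1, 86.8 and 82.3 in LPS + M2-Exo. Parp2 was at 102, 110.2 and 106 in Hyp and 109, 109.9 and 107 in Hyp + M2-Exo. It rose by 0.41 (SE 0.043, adjusted p = 4.80e-05) and 0.39 (adjusted p = 0.000111), without overlap. The scaffold Xrcc1 did not pass the test (-0.0066, 95% interval -0.14 to 0.13), and its ligase partner Lig3 passed it narrowly in Hyp against LPS (0.13, adjusted p = 0.0469). Lig3 lost the call when any library but LPS replicate 2 was left out, at 0.076 to 0.15, and without the filter, with DESeq2 and with all 12 libraries in 1 fit, and shares 23.8% of its stretches with Rffl. In the 15 further genes of these routes, 5 rose and 2 fell, with the largest changes in the uracil glycosylase Smug1 (0.70, adjusted p = 6.93e-06) and Parg, which degrades poly(ADP-ribose) (0.66, adjusted p = 1.50e-06).

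In mismatch repair neither gene passed the test in Hyp against LPS, where 75.8% of all genes tested were called. Msh6, which recognises base mismatches and was the most abundant of the 53 genes by FPKM (58.5), stood at 251, 242 and 254 CPM in LPS and 252, 266 and 259 in LPS + M2-Exo. Msh6 was at 244, 241 and 246 in Hyp and 237, 247 and 251 in Hyp + M2-Exo. Its 12 libraries lay within a narrow band, and the change was -0.03 (95% interval -0.10 to 0.043, adjusted p = 0.409). The nicking partner Pms2 was at 0.27 without M2-Exo (adjusted p = 0.0573) and rose by 0.27 with it (adjusted p = 0.0261). The first passed the test without LPS replicate 1, at 0.39, and the second lost its call without LPS + M2-Exo replicate 2 or 3 or Hyp + M2-Exo replicate 1 or 3, at 0.21 to 0.26. Of 3 further mismatch repair genes, Mlh3 rose (0.28, adjusted p = 0.0016) and Pms1 fell (-0.34, adjusted p = 0.00282).

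In nucleotide excision repair, the route for bulky lesions, 3 of 5 genes rose in Hyp against LPS and none fell. These 60% lay below the 75.8% of all genes called in either direction, with 38% of all genes called higher. Ercc3, a helicase of TFIIH and the most abundant of the group by FPKM (23.8), stood at 69.1, 73.1 and 80.1 CPM in LPS and 73.1, 73.3 and 78.8 in LPS + M2-Exo. Ercc3 was at 102, 90.3 and 98.3 in Hyp and 103, 105 and 96.7 in Hyp + M2-Exo. The hyperoxia libraries lay above the LPS libraries, with log2 fold changes of 0.39 (SE 0.069, adjusted p = 0.0011) and 0.43 (adjusted p = 0.000126). Ercc4, the nuclease subunit XPF, rose by 0.38 (adjusted p = 0.000923) and 0.37 (adjusted p = 0.0014). Its partner Ercc1 did not pass the test (0.13, 95% interval -0.10 to 0.36), and neither did the lesion-verifying factor Xpa (0.034, 95% interval -0.17 to 0.24). Ercc2, the other TFIIH helicase, was called without M2-Exo (0.60, adjusted p = 0.000228) and not with it (0.22, 95% interval -0.12 to 0.56), where the call returned without Hyp + M2-Exo replicate 1, at 0.36. It shares 29.1% of its stretches with other genes, including Klc3, which overlaps it and was called lower (-0.66, adjusted p = 0.00418). Of 18 further genes, 10 rose and 4 fell, most of all Ercc8 (1.54, adjusted p = 2.94e-07), which acts at stalled RNA polymerase, and Gtf2h1, a TFIIH subunit (1.28, adjusted p = 1.87e-05).

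Rad18, the ligase that marks the sliding clamp for translesion synthesis, stood at 90.1, 89.6 and 88.5 CPM in LPS and 89.2, 91.8 and 88.8 in LPS + M2-Exo. Rad18 was at 102, 107 and 99.1 in Hyp and 104, 106 and 101 in Hyp + M2-Exo. The hyperoxia libraries lay above the LPS libraries by a small margin, 0.20 (SE 0.04, adjusted p = 0.00198) and 0.20 (adjusted p = 0.00282) on the log2 scale. In 13 further genes of translesion synthesis and fork protection, 4 rose and 5 fell, led by the polymerase Polk (1.08, adjusted p = 6.33e-07) and the fork remodeller Smarcal1 (-0.71, adjusted p = 1.17e-05). Over all 111 further repair genes in the table, 60 rose and 22 fell, with a median log2 fold change of 0.23. These are 54.1% and 19.8%, beside 38% and 37.8% of all genes tested. By group, 66.7% rose for damage signalling, 71.4% for break sensing, 70% for recombination and 60% for end joining. It was 55.6% for Fanconi anaemia, 33.3% for base excision, 33.3% for mismatch repair and 55.6% for nucleotide excision. The shares that fell were, in the same order, 8.33%, 14.3%, 20%, 0%, 22.2%, 13.3%, 33.3% and 22.2%. For translesion synthesis 30.8% rose and 38.5% fell, near the shares of all genes.

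On the FPKM scale, where genes of a group can be added, recombination genes summed to 71.5 to 75.1 in LPS and 105 to 107 in Hyp, and break sensing genes to 137 to 139 and 193 to 195. The end joining genes summed to 41.9 to 43.5 in LPS and 41.7 to 42.8 in Hyp, with the ligase genes higher and Xrcc6 lower within the sum. Base excision and single-strand break repair summed to 145 to 152 in LPS and 155 to 158 in Hyp, with the abundant Parp2 higher and 5 of the 11 genes lower within the sum. FPKM is scaled by the total count alone, and with that scaling the median of all genes shifted upward in Hyp by 0.09 on the log2 scale relative to TMM.

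The same comparison between the 6 libraries with M2-Exo used none of the libraries above. In Hyp + M2-Exo against LPS + M2-Exo, 24 of the 53 genes rose and 11 fell, against 73.7% of 13660 genes called, 37.1% higher and 36.5% lower. With log2(FPKM + 1) in limma and no filter the split was 27 and 7. The 2 comparisons shared 31 genes called in the same direction, 23 higher and 8 lower, which is 88.6% of each list, and held no gene called in opposite directions. Among all genes tested in both, 9182 were shared, or 89.1% and 91.8% of the lists, which are shares of like size. Fanci, Ung, Lig3 and Ercc2 were called only without M2-Exo and Xrcc5, Neil3, Parp1 and Pms2 only with it, and none of these 8 genes showed a called difference between the 2 comparisons in the test of that difference given below. The 14 genes called in neither were H2afx, Mdc1, Rad51b, Rad51c, Rad54l, Xrcc3, Prkdc, Nhej1, Fanca, Ogg1, Xrcc1, Msh6, Xpa and Ercc1. Some of these were called higher in other settings. With M2-Exo in both groups Mdc1 was called in 6 other settings and Ercc1 in 4. Nhej1 was called in Hyp against LPS without Hyp replicate 1, at a log2 fold change of 0.55. Of the 18 genes not called in Hyp against LPS, 16 had a 95% interval that lay within a 1.5-fold change in either direction, the exceptions being Nhej1 and Neil3.

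Other gene lists that touch these pathways moved in the same libraries. Among 32 genes of DNA replication and entry into S phase, 22 rose and 5 fell in Hyp against LPS, with a median log2 fold change of 0.40, and their FPKM summed to 1319 to 1342 in LPS and 1813 to 1830 in Hyp. The rises included the licensing factor Cdc6 (1.47, adjusted p = 3.44e-08) and the replicative helicase factor Cdc45 (1.09, adjusted p = 1.01e-07), and the falls the polymerase subunit Pold1 (-0.78, adjusted p = 5.65e-06). Among 26 genes of mitosis, 8 rose and 13 fell with a median of -0.063, and the sums were 932 to 938 and 951 to 960 FPKM. Among 21 targets of p53, the transcription factor that ATM and CHK2 stabilise, 17 rose and 2 fell with a median of 0.57. Cdkn1a, the cell cycle inhibitor p21, rose most (2.92, 7.57-fold, adjusted p = 8.02e-09), and the rises included the stress sensor Sesn2 (1.66, adjusted p = 1.78e-07). Sesn1 was the largest fall (-1.85, adjusted p = 1.44e-07). The shares called higher were 68.8% for the replication genes, 30.8% for mitosis and 81% for the p53 targets, beside 38% of all genes tested. Those called lower were 15.6%, 50% and 9.52%, beside 37.8%. The part of the replication genes in the changes of the recombination genes was not tested. Neither was the part of p53 or of the SV40 large T antigen in the changes of these lists.

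The other comparisons asked whether M2-Exo altered the repair genes within each injury. In Hyp + M2-Exo against Hyp, none of the 53 genes was called by edgeR, against 0.101% of 13815 genes, and at an unadjusted p under 0.05 there were 3, against 8.48% of all genes. They were Exo1 (0.14, unadjusted p = 0.0331), Blm (0.082, unadjusted p = 0.0492) and Fanca (-0.094, unadjusted p = 0.0499), in the edgeR fit to 6 libraries. In LPS + M2-Exo against LPS, none was called either, against 0.187% of 13353 genes, with 3 repair genes at an unadjusted p under 0.05, against 11.1% of all genes. These were the Ku gene Xrcc5 (0.13, unadjusted p = 0.0286), Mutyh (-0.23, unadjusted p = 0.0415) and Tdp1 (0.16, unadjusted p = 0.0499), in the edgeR fit as well. DESeq2 called 0 of the 53 genes in both, with 1 gene at an unadjusted p under 0.05 in each.

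The sizes of these differences were small for most repair genes. The median size of the log2 difference, whichever its direction, was 0.050 in Hyp + M2-Exo against Hyp and 0.050 in LPS + M2-Exo against LPS. The 95% interval lay within a 1.5-fold change in either direction in 50 of the 53 genes in the former, the exceptions being Nhej1, Ung and Neil3, and in 51 in the latter, the exceptions being Ung and Neil3. For Chek2 the interval was -0.18 to 0.19 in hyperoxia and -0.14 to 0.14 in LPS, for Rad52 -0.12 to 0.19 and -0.17 to 0.24, for Xrcc6 -0.066 to 0.27 and -0.14 to 0.15, and for Ogg1 -0.27 to 0.24 and -0.21 to 0.22, all on the log2 scale.

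**Figure D4:**
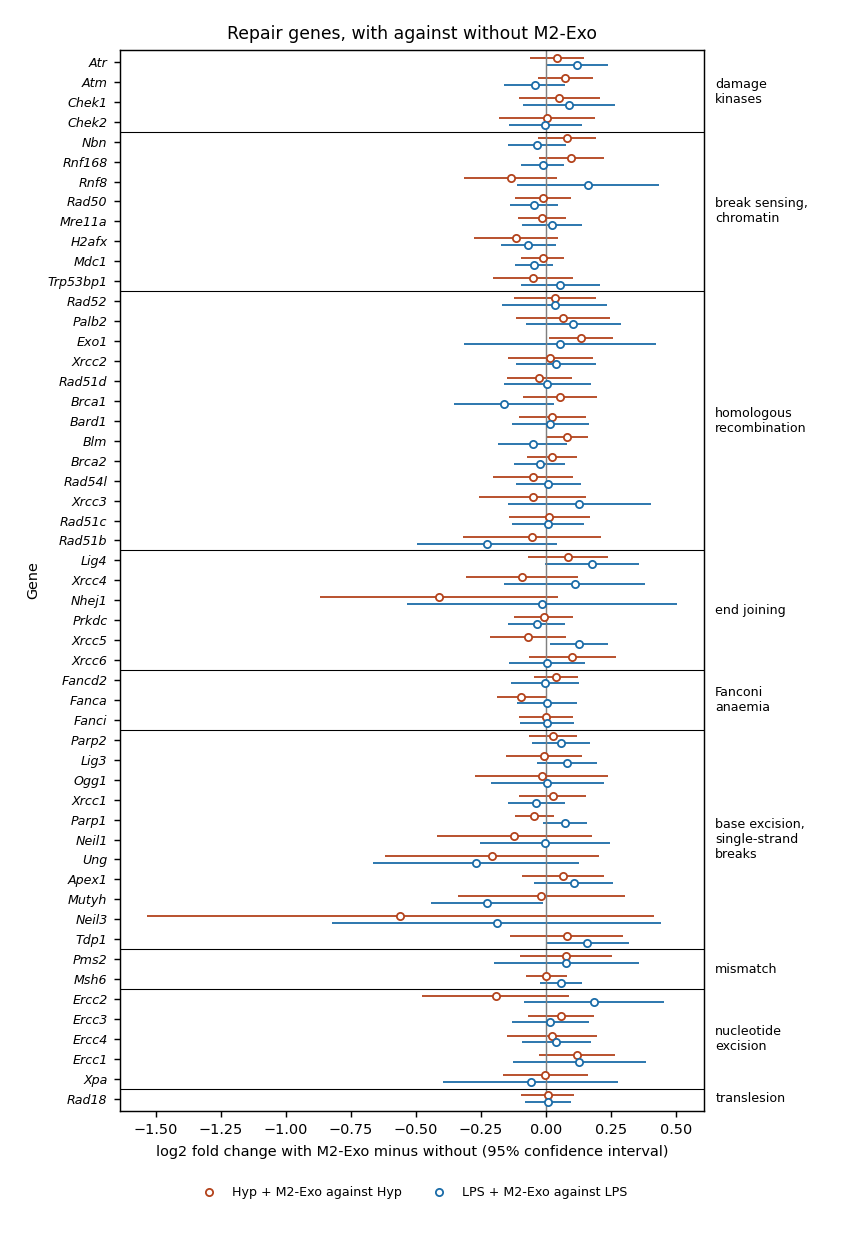
Log2 fold change with M2-Exo against without, with its 95% confidence interval, for each of the 53 repair genes in hyperoxia (red) and in LPS (blue), on 3 libraries per group. All points are open because none was called, most intervals are narrow and include 0, and Neil3, Nhej1 and Ung have the widest.

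The effect of M2-Exo was also compared between the injuries. The interaction term over the 12 libraries called none of the 53 genes by edgeR, against 0.0352% of 14187 genes, and DESeq2 called 0 as well. Unadjusted p-values under 0.05 were found for 2 genes by each tool, against 9.78% of all genes by edgeR. In the edgeR fit they were Xrcc5 (-0.19, 95% interval -0.37 to -0.018, unadjusted p = 0.0333, adjusted p = 0.465) and Parp1 (-0.11, 95% interval -0.22 to -0.0083, unadjusted p = 0.0365, adjusted p = 0.48), both with the lower value in hyperoxia. For 48 of the 53 genes the interval of the difference lay within a 1.5-fold change, and for Rnf8, Nhej1, Ung, Neil3 and Ercc2 it reached beyond.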

How the data were processed

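Poly(A) RNA of 12 MLE-12 libraries was sequenced on an Illumina instrument. Per the labels and the methods, the authors filtered reads with Seqtk and mapped them with HISAT2 2.0.4 to GRCm38, and StringTie 1.3.0 and edgeR are named in the submitters' processing notes. The deposited counts are reads per gene, not normalized, and the deposited FPKM are those counts per length and total count, with the counting program and its strand setting not given in the sources used here. No column of per-library values was left unused (0).

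Counts were analysed with edgeR 4.0.16 in R 4.3.3. Low genes were removed with filterByExpr and TMM factors were applied, and each comparison was a quasi-likelihood F test on its 6 libraries, or on all 12 for the interaction, with Benjamini-Hochberg adjustment over all genes tested and a threshold of 0.05. The common biological coefficient of variation was 8.78% to 9.41%. The fit was tested on simulated data. CPM are on the TMM scale of all 12 libraries. A count of 0 allows up to 3 counts, for counting error only.

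The members and all lists were chosen with earlier results of these data known. Values in every library were given for the 12 genes with the largest called change in Hyp against LPS, for the gene of each repair group with the highest FPKM, and for Atm, Atr, Chek1, Chek2, Ogg1, Parp1, Brca1 and Prkdc, and up to 2 further genes per group were named by size of change. Other genes, among them Wee1 and those of the replication and p53 lists, were named after their values were seen. Of 117 further repair genes, 111 were in the table.

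Alternatives were RLE, library size alone, no filter or at least 10 counts, the Wald test of DESeq2 1.42.0, fitting all 12 libraries together, a block for the replicate number, limma 3.58.1 with log2 FPKM after adding 1 or 0.1, and leaving out each library in turn. Of the 53 genes, 18 overlap another gene of the table by position, 17 of them on the other strand, and 13 share over 5% of their 50-base stretches with other genes, so that their counts may hold reads of those genes. Promoters are from RefSeq (GRCm38.p6). Entries were not used for Xrcc6, whose entry starts far from the table's gene start, and were missing for Ercc3, Exo1, Fancd2, H2afx, Nbn, Prkdc, Rad50, Rad51d and Xrcc2.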

Additional observations from a re-analysis of the deposited data

How the results depend on the processing

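Of the 35 repair genes called in Hyp against LPS, 30 were called under every alternative and with every library left out, and of the 35 called in Hyp + M2-Exo against LPS + M2-Exo, 28 were. No called gene changed direction. Of the genes not called, 7 in the former comparison and 6 in the latter were called under some alternative or with some library left out. The number called ran from 33 to 40 over the alternatives and 34 to 35 with a library left out in the former, and from 32 to 38 and 31 to 34 in the latter. Of the group counts, that of falls in Hyp + M2-Exo against LPS + M2-Exo moved past 1.5 times, from 11 to 7, with limma on log2(FPKM + 1) and no filter, and the cause was not tested. With library size alone the split was 31 higher and 8 lower in Hyp against LPS and 27 and 9 with M2-Exo. In the comparisons of M2-Exo and in the interaction, 0 repair genes were called under every alternative, although DESeq2 called 37 genes in Hyp + M2-Exo against Hyp, 130 in LPS + M2-Exo against LPS and 70 in the interaction over all genes.

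The replicate numbers did not pair the libraries, since deviations from the group means of same-numbered libraries correlated at -0.018 to 0.050. With the replicate block, 34 repair genes were called in each of the injury comparisons, without Fanci in the first and Rnf8 in the second, and 0 in the others. Replicates of a group differed by more than sampling noise, at 7.01 to 11.6 chi-square per degree of freedom, so that none was counted as a duplicate. Neil3 and Nhej1, with wide intervals, lay under 4 CPM in every library, and Ung, with wide intervals too, did not, and the part of depth was not tested.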

Other observations

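Of the 53 repair genes, 19 (35.8%) had a neighbour on the other strand whose start lay within 1000 bases of their own, pointing away from them, against 15% of all genes tested in Hyp against LPS. Such head-to-head pairs leave little sequence between the starts, 21 bases for Lig4 and Abhd13 and 30 for Fancd2 and Emc3. Of these neighbours 15 were tested, and in 6 pairs both genes were called in the same direction, with 0 pairs called in opposite directions. These are 40% and 0%, beside 35.8% and 15.3% of the 1610 genes of the whole table that were tested together with such a neighbour. Brca1 (0.55) and Nbr1 (0.69), Atm (0.24) and Npat (0.50), Lig4 (0.78) and Abhd13 (0.49), Fancd2 (0.36) and Emc3 (0.46), and Rad18 (0.20) and Gm26799 (1.13) rose together, and Apex1 (-0.56) and Osgep (-0.52) fell together, in log2 fold change of Hyp against LPS. In other pairs the repair gene changed and its neighbour did not pass the test, as for Chek2 (-0.78) and Hscb (0.0037), Palb2 (0.80) and Dctn5 (0.096), and Mutyh (-0.59) and Toe1 (0.060). The reverse was seen for Prkdc (-0.082) and the replication gene Mcm4 (0.15, called), and for Xrcc3 (0.054) and Zfyve21 (-0.88, called). These neighbours were chosen by position after the values of the repair genes were seen, and the relation was not tested.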
